A study of Drosophila melanogaster with 4 samples.

Results

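The 6 genes described here were far higher in kdm5 mutants than in wild type Drosophila melanogaster: lncRNA:CR40469, CG7542, CG33346, CG16758, CG32444 and CG12780. They were chosen from 12073 gene IDs listed in any library and are not a count of all such genes. They were selected on their RPKM, the reads per kilobase of gene scaled to library size, being far higher in both mutant libraries than in both wild type libraries. Their genotype difference is therefore a description of how they were chosen, and no test is made of it. All 6 were listed in all 4 libraries. In wild type their levels ran from 0.836 RPKM for lncRNA:CR40469 in control to 27.1 RPKM for CG32444 with paraquat.

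RNA came from whole adult females aged 1 to 3 days, extracted in groups of 5 flies, with poly-A selection. Mutant flies carried 2 different mutant alleles of kdm5, kdm5K6801/10424, together with w1118, and wild type flies were w1118. Both genotypes thus hold w1118. Before extraction both genotypes received 5% sucrose for 6 hours, either with 20 mM paraquat, a generator of superoxide, or plain (control). The 4 groups are mutant with paraquat, mutant control, wild type with paraquat and wild type control, each with 1 library. The kdm5 alleles and any other difference between the 2 stocks cannot be told apart.

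Kdm5 is a histone demethylase that removes methyl groups from lysine 4 of histone H3, a mark found at the starts of active genes, and the active chromatin state is set by the balance of enzymes that add and remove it. The 6 genes encode products of different kinds. Of the 5 that code for protein, CG7542 encodes a trypsin-like serine protease, CG33346 a nuclease of the DNA/RNA non-specific endonuclease family, CG16758 a purine nucleoside phosphorylase, which releases bases from purine nucleosides, CG32444 an aldose 1-epimerase, which interconverts the ring forms of sugars such as galactose, and CG12780 a small relative of the Gram-negative binding proteins, which recognise microbial sugars. lncRNA:CR40469 is a non-coding RNA, for which no role is given here. In whole flies, a higher level in each cell and more cells of an expressing type cannot be told apart.

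The libraries held 27.9 M to 29.1 M uniquely mapped reads, and 3 reads in a gene of 1 kb corresponded to 0.103 to 0.107 RPKM. Since each group is 1 library, the spread between flies is unknown, and differences are given without tests. Intervals are exact 95% intervals that cover counting error only. Kdm5 itself was at 2.03 and 2.06 RPKM in mutant flies with and without paraquat, against 22.5 and 43.4 RPKM in wild type flies with and without paraquat. The yolk protein gene Yp1, a female marker, was at 1774 to 4296 RPKM, and 8 listed male genes summed to 0.262 to 1.31 RPKM. The wild type control library stood apart: its differences from the other libraries had an SD of 0.723 to 0.752 across 8611 genes on the log2(RPKM + 1) scale, against 0.279 to 0.590 among the other 3. Both wild type libraries are therefore shown for every gene.

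**Figure D1:**
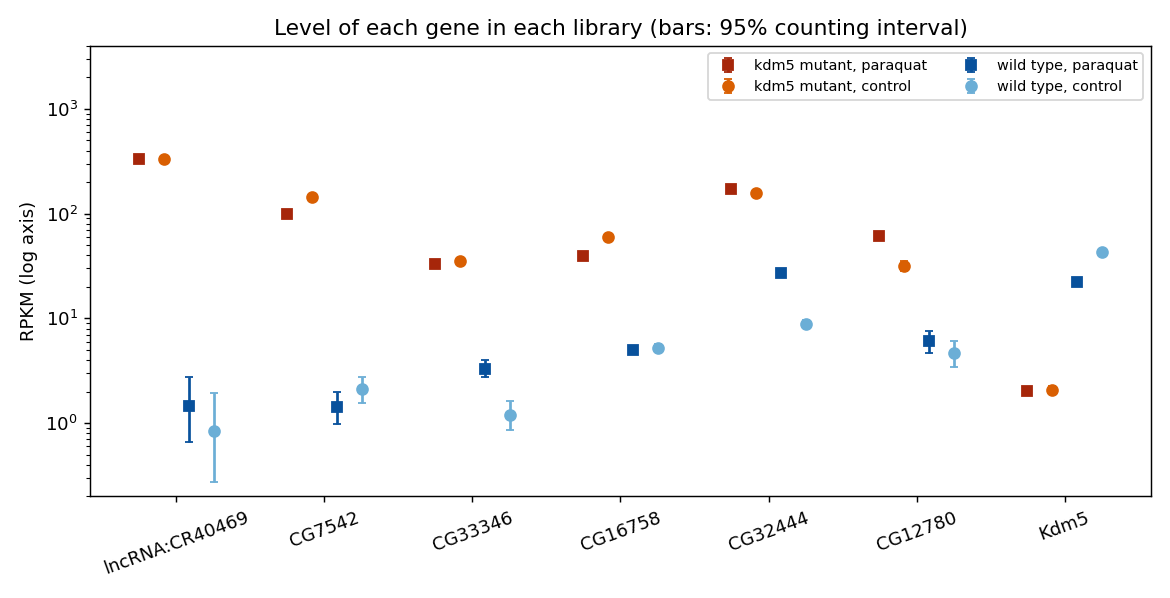
RPKM (log axis) of the 6 genes and of Kdm5 in each of the 4 libraries; points are single libraries and bars are exact 95% counting intervals. For each of the 6 genes both mutant points lie above both wild type points, from lncRNA:CR40469 (336 and 334 against 1.45 and 0.836 RPKM) to CG12780 (61.4 and 31.8 against 6.04 and 4.62 RPKM), and Kdm5 runs the other way.

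lncRNA:CR40469 (FBgn0058469) lies on chromosome X at 122493 to 122706, plus strand, in the BDGP6 annotation, as 1 exon of 214 bases. It was at 336 and 334 RPKM in mutant flies with and without paraquat, from 2093 and 2023 reads. In wild type flies it was at 1.45 and 0.836 RPKM with and without paraquat, from 9 and 5 reads. The mutant level was 231-fold higher under paraquat (122 to 506) and 399-fold higher in control flies (171 to 1231). The wide intervals come from the few wild type reads. In the mutant it ranked 155 of all genes by RPKM with paraquat and 165 in control, against 7899 and 8141 in wild type with paraquat and in control.

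CG7542 (FBgn0036738), the serine protease gene, lies on chromosome 3L at 17549826 to 17550980, plus strand, in 1 exon block of the BDGP6 annotation. It was at 100.02 and 146 RPKM in mutant flies with and without paraquat, from 2423 and 3432 reads. In wild type flies it was at 1.41 and 2.11 RPKM, from 34 and 49 reads. The mutant level was 70.9-fold higher under paraquat (50.6 to 103) and 69.1-fold higher in control flies (52.2 to 93.6). The ratio was nearly the same in the 2 conditions, each interval holding the other's value.

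CG33346 (FBgn0053346), the nuclease gene, lies on chromosome 3R at 28669233 to 28670452, plus strand, with 3 exon blocks. It was at 32.8 and 35.0 RPKM in mutant flies with and without paraquat (1164 and 1208 reads), and at 3.32 and 1.20 RPKM in wild type flies with and without paraquat (117 and 41 reads). The mutant level was 9.89-fold higher under paraquat (8.17 to 12.1) and 29.1-fold higher in control flies (21.3 to 40.7). The mutant libraries were alike, and the 2 ratios differ through the wild type libraries.

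CG16758 (FBgn0035348), the purine nucleoside phosphorylase gene, lies on chromosome 3L at 2499372 to 2503606, minus strand, with 6 annotated transcripts and introns of 2250 bases in all. It was at 39.4 and 59.8 RPKM in mutant flies with and without paraquat (4852 and 7170 reads), against 5.01 and 5.22 RPKM in wild type flies (614 and 618 reads). The mutant level was 7.86-fold higher under paraquat (7.22 to 8.56) and 11.5-fold higher in control flies (10.5 to 12.5). Here the wild type libraries were alike, and the ratios differ through the mutant libraries.

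CG32444 (FBgn0043783), the aldose 1-epimerase gene, lies on chromosome 3L at 21636947 to 21639060, plus strand, with 2 exon blocks. It overlaps the antisense gene asRNA:CR45955 and a transposon insertion, so part of its reads may belong to these. It was at 170 and 158 RPKM in mutant flies with and without paraquat (10472 and 9483 reads), against 27.1 and 8.82 RPKM in wild type flies (1657 and 521 reads). The mutant level was 6.28-fold higher under paraquat (5.97 to 6.62) and 18.0-fold higher in control flies (16.4 to 19.7). It had the highest wild type level of the 6 genes. By RPKM it ranked 1574 of all genes in wild type with paraquat and 5347 in wild type control, so it was not silent there.

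CG12780 (FBgn0033301), the small relative of the Gram-negative binding proteins, lies on chromosome 2R at 8551859 to 8552290, minus strand, in 1 exon with a coding length of 300 bases. It was at 61.4 and 31.8 RPKM in mutant flies with and without paraquat (705 and 356 reads), against 6.04 and 4.62 RPKM in wild type flies (69 and 51 reads). The mutant level was 10.2-fold higher under paraquat (7.92 to 13.2) and 6.89-fold higher in control flies (5.13 to 9.43). The 2 intervals overlap, and the mutant libraries differed from each other by more than their counting intervals.

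By RPKM on the deposited length, the order of levels in the mutant control was lncRNA:CR40469, CG32444, CG7542, CG16758, CG33346 and CG12780. The intervals of CG33346 (33.0 to 37.0 RPKM) and CG12780 (28.6 to 35.3 RPKM) overlapped, and those of other neighbours in the order did not. The deposited length holds introns for 3 of the 6 genes. Per base of annotated exon, an alternative chosen after the data were seen, CG16758 was at 128 and CG7542 at 105 RPKM in the mutant control. Both length changes were needed for this pair to change places. CG16758 rose from 59.8 RPKM once its introns were left out. The BDGP6 exon of CG7542, 1155 bases, is longer than its deposited length of 833 bases. CG7542 has no annotated intron, and on its deposited length it was at 146 RPKM, above the 128 RPKM of CG16758. lncRNA:CR40469 stayed first at 334 and CG32444 second at 262 RPKM.

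For counts over many genes, a gene counted as higher or lower if the gap in log2(RPKM + 1) reached 1 and either library had an RPKM of 1 or more. Under this rule all 6 genes were higher in the mutant in both conditions, as their choice required. Of all genes measured, 2.30% were higher and 2.70% lower in the mutant under paraquat, 6.55% were higher and 5.75% lower in control, and 1.64% of 8240 were higher and 1.06% lower in both. Since these differences chose the 6 genes, nothing is read from their count. Both mutant libraries lay above both wild type libraries for 16.6% of genes. The median gene differed between mutant and wild type by 0.08 under paraquat and by −0.19 in control. Of the genes past the rule in control, 53.3% were higher, or 65.0% and 68.4% with median-ratio and upper-quartile scaling, under which the median gene differed by −0.10 and −0.06. The differences of the 6 genes ran from 2.61 to 7.10 under paraquat and from 2.55 to 7.51 in control.

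**Figure D2:**
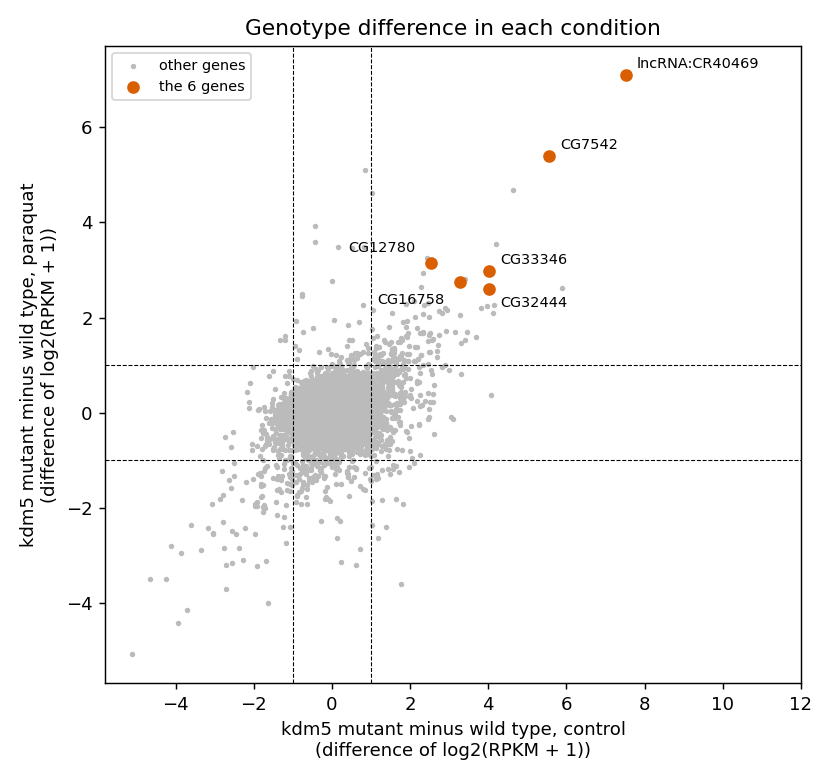
Each point is 1 of 8240 genes; the horizontal axis is the difference of log2(RPKM + 1) between mutant and wild type in control flies and the vertical axis the same under paraquat, with dashed lines at −1 and 1. The 6 genes lie at the upper right, lncRNA:CR40469 furthest at 7.51 and 7.10 and CG7542 next at 5.56 and 5.39, and the other 4 lie between 2.55 and 4.03 in control.

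No numerical limit bounds the choice of these genes, so their place among all genes was read from the lower mutant RPKM divided by the higher wild type RPKM, with wild type levels set to no less than 3 reads. Of 6102 genes at 5 RPKM or more in both mutant libraries, the 6 took places 1, 3, 5, 8, 12 and 15. lncRNA:CR40469 led with a ratio of 230, CG7542 had 47.5 and CG33346 had 9.89. CG16758, CG32444 and CG12780 had 7.54, 5.85 and 5.27. CG13947, just above CG12780 with 5.39, and lncRNA:CR43417, just below it with 5.12, were not chosen, so the choice does not take every gene of this size. The median ratio was 0.747, and 16 genes reached 5.

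The 15 other genes with the largest ratios hold members of several families. Ser12, a serine protease gene, was second of all, with 606 and 616 reads in mutant flies with and without paraquat, against 0 and 2 reads in wild type flies. Immune genes were present too. Drsl4, a relative of the antifungal peptide drosomycin, was at 20.5 and 41.6 RPKM in mutant flies with and without paraquat, against 0.857 and 1.33 RPKM in wild type flies. BomBc1, a Bomanin of the Toll pathway, was at 33.7 and 37.9 RPKM in the mutant, against 3.97 and 2.69 RPKM in wild type. Oatp58Db, an organic anion transporter gene, was at 8.26 and 9.50 RPKM, against 0.875 and 0.920 RPKM. The others were tobi, CG3397, CG15533, Map205, CG13947, lncRNA:CR43417, phr6-4, CG3699, Prat2, Cyp6t3 and CG31862. Their ratios ran from 4.79 to 6.31.

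The profiles of the 6 genes over the 4 libraries were compared by Euclidean distance of log2(RPKM + 1) centred on each gene's mean, as a description. CG33346 and CG32444 were the closest pair among the 6, at 0.45. For CG32444 the nearest 3 genes of all were Map205 (0.37), CG3699 (0.38) and CG33346 (0.45), and for CG33346 they were CG32444 (0.45), CG3699 (0.52) and BomBc1 (0.56). CG7542 was nearest to Ser12 (0.91), and then to Drsl4 (1.64) and lncRNA:CR40469 (1.95). For CG16758 the nearest were BomBc1 (0.46), CG31380 (0.57) and Prat2 (0.60), and for CG12780 they were mthl8 (0.58), CG15533 (0.72) and CG3397 (0.73). lncRNA:CR40469 had no close match: its nearest genes were CG7542 (1.95), Ser12 (2.68) and Drsl4 (3.55).

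The response to paraquat was not used to choose the genes, although it comes from the same libraries. In the mutant, 0 of the 6 genes passed the rule, beside 0.712% of all genes higher and 0.603% lower. CG12780 was nearest to it, at 61.4 RPKM with paraquat and 31.8 RPKM in control, 1.93-fold higher (1.69 to 2.20), a difference of 0.93. CG16758 and CG7542 had ratios of 0.659 (0.635 to 0.683) and 0.687 (0.652 to 0.724), so both were lower with paraquat by more than counting error. CG32444, lncRNA:CR40469 and CG33346 had ratios of 1.07 (1.05 to 1.11), 1.01 (0.947 to 1.07) and 0.938 (0.865 to 1.02). The mutant level of lncRNA:CR40469 thus differed between the conditions by no more than counting error.

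In wild type flies, 1 of the 6 genes, CG32444, passed the rule, beside 5.21% of all genes higher and 10.4% lower. Of the genes past it, 33.3% were higher, or 58.5% and 72.1% with median-ratio and upper-quartile scaling. The median gene differed by −0.29, or by −0.13 and −0.03 under those scalings. CG32444 was at 27.1 RPKM with paraquat and 8.82 RPKM in control, 3.07-fold higher (2.78 to 3.40). CG33346 was at 3.32 RPKM with paraquat and 1.20 RPKM in control, 2.76-fold higher (1.92 to 4.04). Its difference of 0.97 fell just short of the rule and passed it in 4 of 5 alternative settings (0.42 to 1.39). CG12780, lncRNA:CR40469, CG16758 and CG7542 had ratios of 1.31 (0.897 to 1.92), 1.74 (0.524 to 6.61), 0.960 (0.857 to 1.08) and 0.671 (0.420 to 1.06), each interval holding 1. CG16758 had a difference of −0.05 that turned positive in 2 of 5 settings. These wild type ratios all rest on the wild type control, the library that stood apart, and its part in them was not tested.

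**Figure D3:**
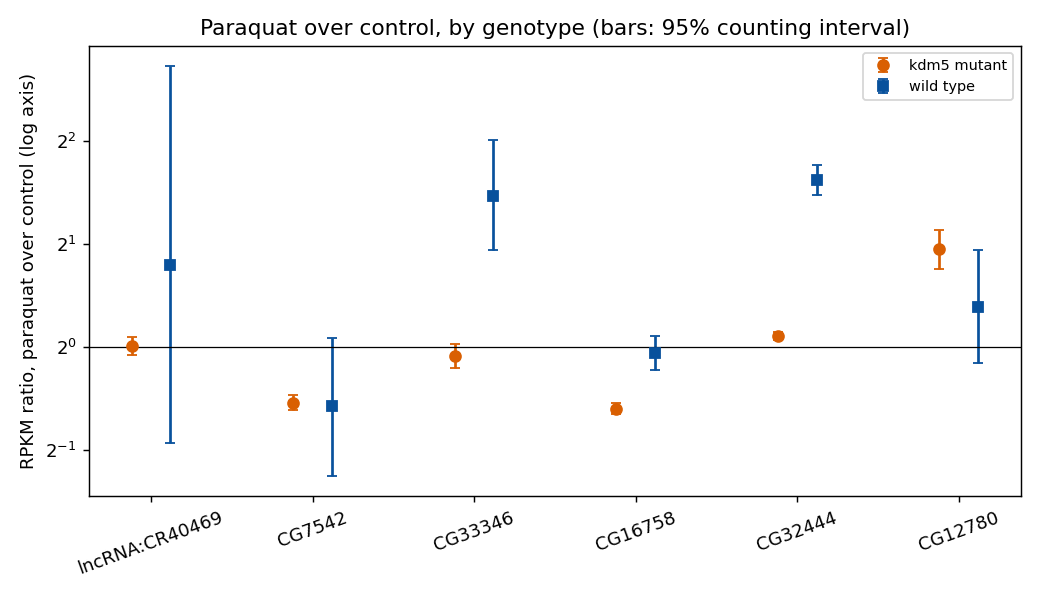
RPKM with paraquat over RPKM in control (log axis) for each gene, in mutant flies (circles) and wild type flies (squares), with exact 95% counting intervals. CG33346 and CG32444 stand at 2.76 and 3.07 in wild type beside 0.938 and 1.07 in the mutant, and the wild type interval of lncRNA:CR40469 is wide because it had 9 and 5 reads.

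The paraquat ratio in the mutant divided by that in wild type was 0.350 (0.315 to 0.388) for CG32444, 0.340 (0.230 to 0.494) for CG33346 and 0.686 (0.609 to 0.773) for CG16758. It was 1.47 (0.983 to 2.20) for CG12780, 1.02 (0.646 to 1.64) for CG7542 and 0.579 (0.152 to 1.93) for lncRNA:CR40469, with intervals that hold 1. These intervals are conditional exact ones on the reads of 4 libraries and carry no spread between flies.

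The coverage column gives the percent of the deposited length covered by reads. For lncRNA:CR40469 it was 52.8% in both mutant libraries and also in wild type with paraquat, and 48.6% in wild type control. That is 113 bases of 214 from 2093, 2023 and 9 reads, and 104 bases from 5 reads, so the far larger number of reads in the mutant covered no more of the gene than 9 reads did. Of other genes of 100 to 400 bases with at least 500 reads, 12 in the mutant with paraquat had a median coverage of 96.3% and a lowest of 69.3%, and 9 in the mutant control had 94.6% and 73.2%. The RPKM of lncRNA:CR40469 on the deposited length therefore spreads its reads over uncovered bases as well. Which bases were covered is not given in the files. The 231-fold and 399-fold ratios thus count unique reads on about 113 of the 214 bases, and why the rest held none was not tested.

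The other 5 genes were covered more fully in the mutant. CG7542 was covered over 99.3% and 99.5% of its length in mutant flies with and without paraquat, against 84.15% and 83.3% in wild type flies, and CG12780 over 98.7% in both mutant libraries, against 94.9% and 80.25%. Annotated exons make up 46.9% of the deposited length of CG16758 and 60.5% of that of CG32444. Coverage went beyond this in every library: CG16758 reached 96.8% and 97.45% in mutant flies with and without paraquat, against 71.1% and 83.9% in wild type flies, and CG32444 reached 83.8% and 83.5%, against 75.1% and 62.6%. At least 2113 and 2142 bases of CG16758 outside annotated exons thus held reads in the mutant, against 1025 and 1569 in wild type. Such coverage was common: 75.1% and 73.9% of genes with introns and at least 500 reads had it in mutant libraries with and without paraquat, against 75.5% and 68.4% in wild type. Coverage grows with the number of reads, so these values do not compare the share of intronic reads.

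**Figure D4:**
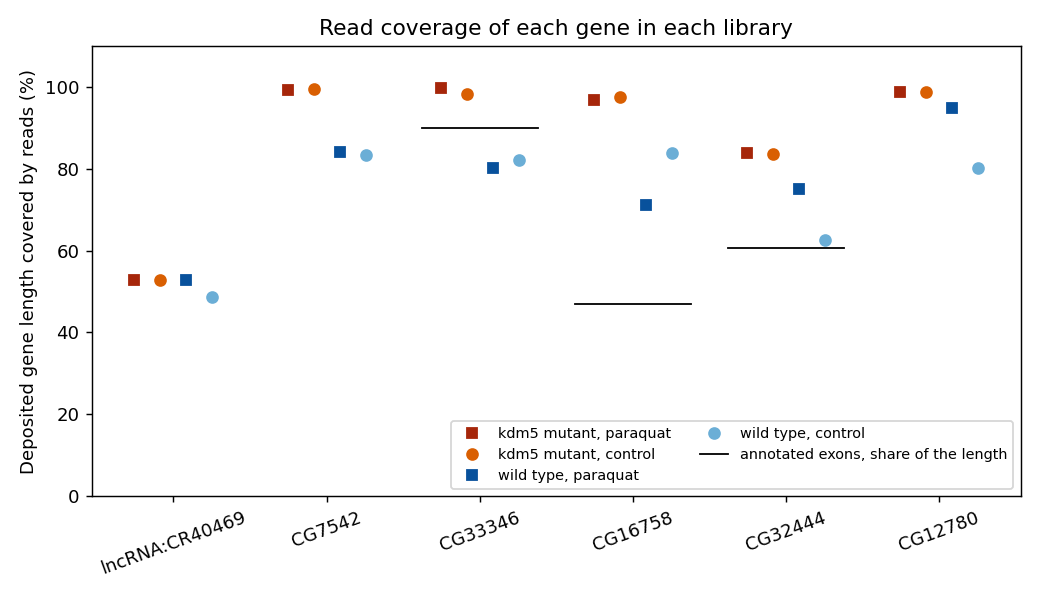
Percent of the deposited gene length covered by reads for each gene in each library, with a black line at the share of that length in annotated exons where it is below 100%. lncRNA:CR40469 stays at 48.6% to 52.8% in all 4 libraries, and CG16758 and CG32444 lie above their exon lines of 46.9% and 60.5% in all 4.

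Of the 6 genes, 3 lie on 3L and 1 each on X, 3R and 2R. The 5 nearest genes of the files on each side, or on 1 side for lncRNA:CR40469 near the end of X, gave 55 neighbours. Under paraquat 1 of the 46 that reached 1 RPKM was higher in the mutant and 0 lower, with a median of 0.11 beside 0.08 for all genes, of which 2.30% were higher. In control 5 of 41 were higher and 2 lower, with a median of −0.18 beside −0.19 for all genes, of which 6.55% were higher. All 5 lie beside CG12780 at 11.9 to 84.3 kb: Cyp6a14 and Cyp6a13, detoxification P450 genes, and the maltase genes Mal-A6, Mal-A7 and Mal-A8. Cyp6a14 was the one called in both conditions, at 9.33 and 7.73 RPKM in mutant flies with and without paraquat, against 3.99 and 2.43 RPKM in wild type flies.

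Within 5 kb of the 6 genes, 0 of 11 measured neighbours were called higher, a count too small to set apart from the shares over all genes, 2.30% under paraquat and 6.55% in control. CG12780 has no neighbour in this count, since its nearest one lies 8.32 kb away. CycT lies 24 bases from CG7542 and differed by 0.29 under paraquat and −0.35 in control. Jon74E, another serine protease gene, lies 699 bases from CG7542 on the other side and was at 231 and 264 RPKM in mutant flies with and without paraquat, against 290 and 142 RPKM in wild type flies, so its groups overlap. Sid, a nuclease gene of the same family as CG33346, lies 252 bases from it and was at 5.17 and 4.66 RPKM in the mutant, against 2.49 and 2.17 RPKM in wild type. Its differences of 0.82 and 0.84 were below the rule. CG32445, the gene next to CG32444, was at 0.0784 RPKM or less in all 4 libraries. CG17636, the nearest gene to lncRNA:CR40469, had differences of −0.55 under paraquat and −1.58 in control, past the rule in control alone, at 0.601 and 0.527 RPKM in the mutant, against 1.34 and 3.56 RPKM in wild type.

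**Figure D5:**
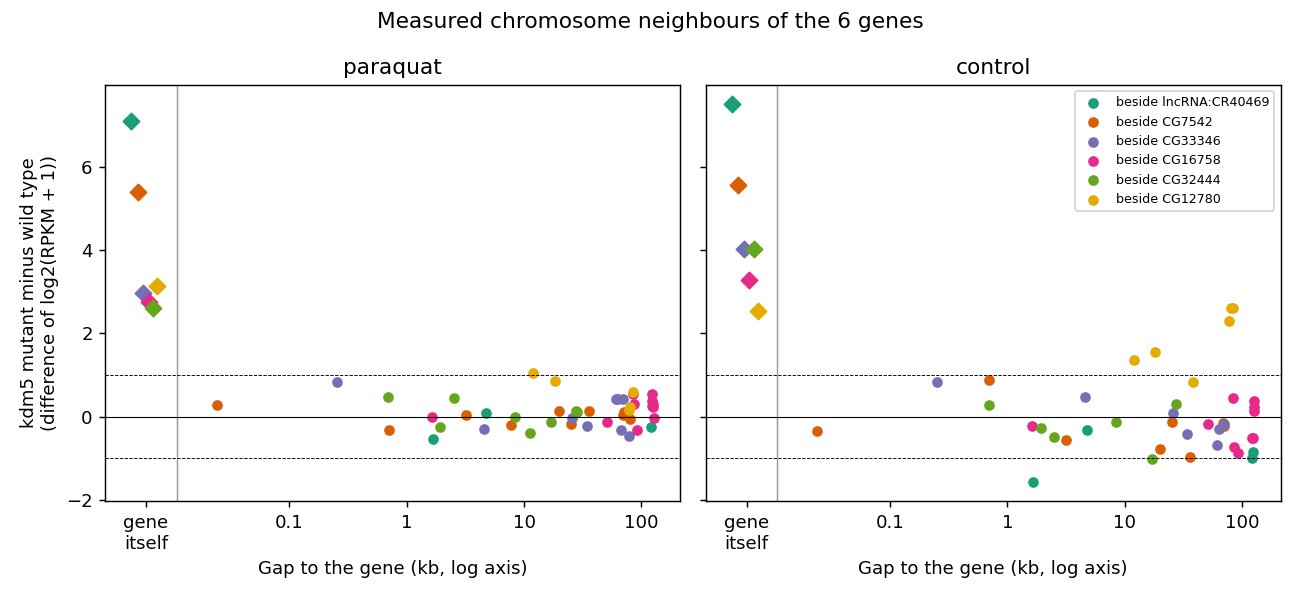
Difference of log2(RPKM + 1) between mutant and wild type under paraquat and in control for the 6 genes (diamonds, left of the vertical line) and their measured neighbours (circles) against the gap between the genes in kb (log axis), with dashed lines at −1 and 1. Circles within 5 kb lie between −0.55 and 0.82 under paraquat and between −1.58 and 0.88 in control.

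Other genes of the same pathways were counted from lists drawn up with earlier results of these data known. Of 20 other measured purine genes, 4 were higher and 0 lower under paraquat (median 0.48), and 7 were higher and 1 lower in control (median 0.59). The 4 higher in both conditions were Prat2, ry, Gart and Pfas. Prat2, which encodes the enzyme of the first step of purine synthesis, was at 37.9 and 49.4 RPKM in mutant flies with and without paraquat, against 7.75 and 5.58 RPKM in wild type flies. Gart and Pfas encode enzymes of later steps of purine synthesis. Gart differed by 1.33 under paraquat and 1.59 in control on the log2(RPKM + 1) scale, and Pfas by 1.27 and 1.07. ry, the xanthine dehydrogenase gene, was at 14.2 and 21.1 RPKM, against 3.75 and 2.91 RPKM. It acts after purine nucleoside phosphorylase in purine breakdown. For this and each list that follows, the shares over all genes were 2.30% higher and 2.70% lower under paraquat, and 6.55% higher and 5.75% lower in control, and no list was tested against them.

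Of 5 other measured genes of galactose and hexose handling, 2 were higher under paraquat and 3 in control, with 0 lower (medians 0.79 and 1.39). Galk, galactokinase, was at 30.3 and 43.6 RPKM in mutant flies with and without paraquat, against 11.2 and 13.7 RPKM in wild type flies. UGP, which makes UDP-glucose, was at 39.5 and 45.8 RPKM, against 18.1 and 15.1 RPKM. Starch and sugar digesting enzymes had 4 of 12 higher under paraquat and 11 of 12 in control (medians 0.64 and 2.27), but their summed RPKM was 1650 and 1769 in mutant flies with and without paraquat, against 931 and 344 in wild type flies, so the wild type control was lowest by far.

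Of 31 other measured gut serine proteases, 5 were higher and 5 lower under paraquat (median −0.25), and 7 were higher and 3 lower in control (median 0.13). Ser12, Jon99Ci, CG3088 and Jon44E were higher in both conditions, and 2 genes, Jon65Aii and Jon99Fii, were lower in both. Jon65Aii differed by −2.40 under paraquat and −1.08 in control, and Jon99Fii by −2.18 and −1.24. Summed over the list without CG7542, RPKM was 4996 and 6034 in mutant flies with and without paraquat, against 6740 and 5329 in wild type flies, so the groups overlap. Of the other nucleases of the family, 0 of 6 were higher and 1 lower under paraquat, and 0 of 5 were higher or lower in control (medians 0.33 and 0.52). Of 5 other Gram-negative binding protein relatives, 0 were called under paraquat and 2 were higher in control (medians 0.35 and 0.65). GNBP3, a recogniser of fungal glucans, was at 13.3 and 18.0 RPKM in mutant flies with and without paraquat, against 7.09 and 7.50 RPKM in wild type flies.

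Among 61 other measured long non-coding RNA genes, 6 were higher and 4 lower under paraquat (median −0.06), and of 59 in control 10 were higher and 7 lower (median 0.17). lncRNA:CR43417 was at 11.2 and 12.8 RPKM in mutant flies with and without paraquat, against 2.03 and 2.18 RPKM in wild type flies. lncRNA:roX1, an RNA of the dosage compensation complex of males, was at 27.7 and 30.0 RPKM in mutant females, against 8.47 and 7.23 RPKM in wild type females.

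Tissue markers moved in the same libraries, and their part in the levels of the 6 genes was not tested. The summed RPKM of 6 larval fat body and serum genes was 246 and 367 in mutant flies with and without paraquat, against 163 and 35.1 in wild type flies. That of 6 muscle genes was 4190 and 4658, against 5756 and 1681, and of 5 Malpighian tubule genes 48.0 and 81.0, against 51.7 and 46.2. That of 6 haemocyte genes was 39.0 and 36.7, against 34.3 and 38.4. Most of these haemocyte sums was crq, at 28.0 and 24.8 RPKM in mutant flies with and without paraquat, against 24.6 and 34.5 RPKM in wild type flies. NimC1, Hml, eater and Pxn were lowest in the wild type control, and PPO2 and crq were not. NimC1 was at 4.95 and 4.72 RPKM in the mutant, against 4.31 and 1.06 RPKM in wild type. The fat body and muscle sums were lowest by far in the wild type control, and the ovary sums were highest there: 7 eggshell genes summed to 2003 and 3575 RPKM in mutant flies with and without paraquat, against 2729 and 7423 RPKM in wild type flies, and 8 female germline genes to 507 and 473 RPKM, against 389 and 630 RPKM. In control 3 of 7 eggshell and 3 of 8 germline genes were lower in the mutant. Under paraquat 1 of 6 fat body, 0 of 6 muscle, 1 of 5 tubule and 0 of 5 haemocyte genes were higher in the mutant, and in control 6 of 6, 4 of 6, 1 of 5 and 2 of 6 were. Both tubule calls were Oatp58Db.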

How the data were processed

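Per the labels' protocols, poly-A libraries were made with an Illumina TruSeq kit. Cufflinks and dm3 are listed in the submitters' processing notes. The sources used here do not name the aligner, the annotation release or the strand setting, so reads of overlapping antisense genes cannot be told apart. The deposited tables give per FlyBase gene its length, RPKM, the percent of the length covered by reads and the unique-read count, per the file headers. The counts sum exactly to the header totals, and RPKM equals reads over length and total within 5.13e-07. Unlisted genes (665 to 834 of 12073 per library) were taken as 0 reads. The deposited length was within 5% of the gene span for 91.4% of 10052 genes with introns. Symbols matched 11666 IDs, and positions are from BDGP6, a later build.

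Values were used as deposited, in Python 3.11.15 with scipy 1.17.1. Folds are RPKM ratios with exact Clopper-Pearson intervals, levels in figures carry exact Poisson intervals, and ratios of ratios carry conditional exact intervals. The size rule and intervals were checked on simulated Poisson counts, which hold no spread between flies. That check therefore covers counting error only. Members and lists were chosen with earlier results of these data known. Named genes are the 6, Kdm5, the 15 next by separation and the 3 nearest profiles of each of the 6. Up to 4 genes of a list or of the neighbours called in both conditions were also named. GNBP3, Yp1, Jon65Aii, Jon99Fii, the haemocyte genes and the other neighbours were picked once values had been seen. A planned search for promoter motifs and protein relatives was not run. The settings tried as alternatives were a pseudocount of 0.1 or 5, an RPKM minimum of 5 or none, median-ratio and upper-quartile scaling, a total without mt:lrRNA, and other baselines.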

Additional observations from a re-analysis of the deposited data

Results flagged for a closer look

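The paraquat difference of CG33346 had opposite signs in the genotypes, −0.09 in the mutant and 0.97 in wild type on the log2(RPKM + 1) scale, a gap of −1.06. Each value comes from 1 pair of libraries, and the difference was not tested across replicates. The mutant ratio of 0.938 has a counting interval of 0.865 to 1.02, which holds 1.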

How the results depend on the processing

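The genotype differences of the 6 genes stayed past the rule in all 72 combinations of gene, condition and alternative setting, from 1.94 to 8.48. This follows from their choice for large differences against both wild type libraries, so nothing is read from it. Background counts moved with the setting. Main counts of genes higher were 195 under paraquat and 548 in control between genotypes, 135 in both, and 59 with paraquat in the mutant and 439 in wild type. A pseudocount of 0.1 gave 101 and 755 for the paraquat comparisons in mutant and wild type. A pseudocount of 5 gave, in the order of the main counts, 91, 250, 58, 37 and 226. Upper-quartile scaling gave 808 in wild type with paraquat. With the wild type library of the other condition as baseline, 481 genes were higher in the mutant with paraquat and 265 in the mutant control. With the wild type control as baseline of both mutant libraries, chosen after seeing the data, 370 were higher in both, and with wild type paraquat 158. The cause of these shifts was not tested. No paired analysis was possible because each group has 1 library. Wild type counts of 5 to 117 reads limit the ratios of lncRNA:CR40469, CG7542, CG33346 and CG12780.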
